A study of Arabidopsis thaliana with 8 samples.

Results

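Unstressed Arabidopsis thaliana seedlings were compared across 2 days, using the 4 mock arrays of a heat stress study with 8 arrays in all. The members were chosen by their titles: 2 arrays of mock plants from the later sampling (2 days of recovery in the stressed plants) and 2 arrays of mock plants from the first sampling (no recovery). All plants grew in vitro for 3 weeks in long days at 22 °C. The later and the earlier mock plants both stayed at 22 °C throughout, and no strain, mutant allele or chemical is named for any group. The other 4 arrays came from plants held at 37 °C for 30 h, 2 sampled after 2 further days at 22 °C and 2 sampled at once. They entered the fit only through its shared estimate of the spread. RNA came from whole seedlings, labelled as biological replicates. The labels do not say whether replicates came from separate cultures, so p-values measure the spread between these samples, which may be partly technical.

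A mock series of this kind records what plants do with no stress at all. Leaves of a young Arabidopsis rosette grow first by cell division and then by expansion, which needs enzymes that loosen the cell wall. Many transcripts also follow the circadian clock, in which dawn, midday and evening genes repress or activate each other in turn, so the hour of sampling alone can set their level. The heat began 3 h after the lights came on and lasted 30 h, which puts the first sampling 9 h into the next light period. The later sampling is labelled only by its 2 days, so its hour was not given in the sources used here, and age and hour cannot be told apart in this comparison. In whole seedlings, fewer cells of a type and less RNA per cell cannot be told apart either.

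The 4 mock arrays were closely alike. The later arrays had median log2 values of 5.11 and 5.10 over all probe sets, and the earlier arrays had 5.09 and 5.09. Across probe sets, the later pair correlated at 0.992, the earlier pair at 0.9904, and pairs of 1 later and 1 earlier array at 0.9827 to 0.9882. The difference between the 3′ and 5′ control probe sets of GAPDH, which grows as RNA breaks down, was 3.24 and 2.73 (log2) on the later arrays and 3.17 and 3.22 on the earlier arrays. For actin the same difference was 2.16 and 1.90 on the later arrays and 2.21 and 2.52 on the earlier arrays, without overlap. The part of RNA breakdown in the results was not tested. The leaf markers that could be tested, PSAE-1, LHCB4.2 and PSBY, are components of the photosystems and their antenna. They had log2 levels of 12.86 to 14.02 on the 4 mock arrays. PYK10, a root beta-glucosidase, had levels of 12.08 and 11.69 on the later arrays and 11.93 and 11.29 on the earlier arrays, and the groups overlapped. EXPA7 and EXPA18, expansins of root hairs, lay at the floor of the array signal (log2 below 2.3) on all 4. The anther genes AMS and AT5G07230 did too, as did AGL42, AGL71 and AGL72 from a list of flowering and floral organ genes. AGL24, the other measured gene of that list, had 6.59 and 6.57 on the later arrays and 6.17 and 5.99 on the earlier arrays.

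Few transcripts passed the test. Of 13849 probe sets with a log2 level of at least 4 on at least 2 of the 8 arrays, 21 (0.152%) had an adjusted p under 0.05, from limma with Benjamini-Hochberg adjustment. Of these, 12 (0.0866%) were higher in the later mock plants and 9 (0.065%) were lower. Changes are log2 differences, later minus earlier, so that 1 is a doubling. Each is given ± its limma standard error (n = 2 arrays per group), which draws on the spread within groups over all 8 arrays. Among the called probe sets, 12 were at least 2-fold higher and 8 at least 2-fold lower, and the smallest called change was 0.84. Across all tested probe sets the median change was -0.0016, and 12781 (92.3%) lay within 0.5 of 0. Some probe sets passed the filter on their heat arrays alone: 665 of the 13849 stayed below log2 4 on all 4 mock arrays, so a small difference there says little. Some called probe sets passed it only through the mock group where they were high, and these are named below. An unadjusted p under 0.05 was found for 1689 (12.2%), of which 847 (6.12%) were higher and 842 (6.08%) lower.

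**Figure D1:**
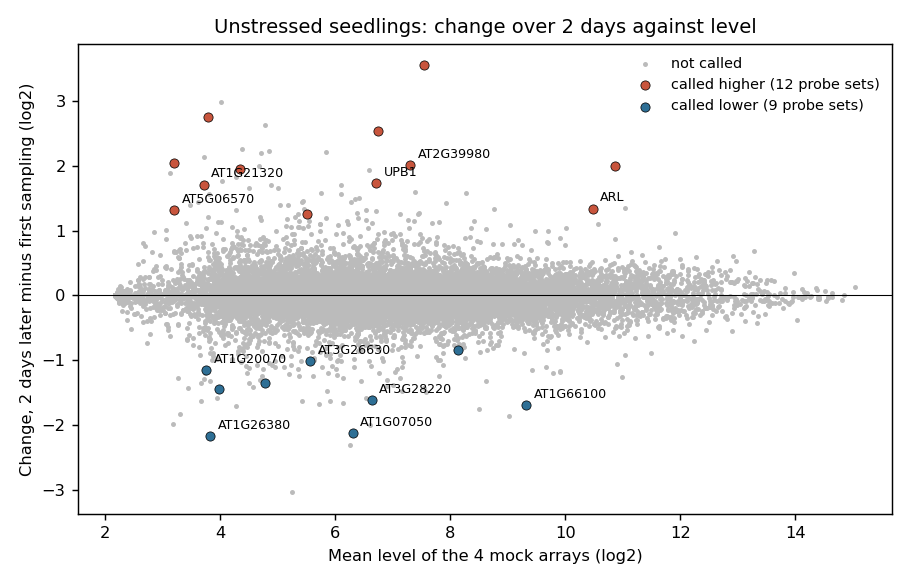
Change between the later and the earlier mock arrays (vertical axis, log2) against the mean level of the 4 mock arrays (horizontal axis, log2), 1 point per tested probe set. The 12 called higher and 9 called lower are coloured, and the 11 with a single listed gene are named; several uncalled probe sets lie as far from 0 as the called ones.

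The number of calls depended on which arrays entered the fit. A fit of the 4 mock arrays alone (2 residual degrees of freedom) called 0 in limma, with a smallest adjusted p of 0.265 and 1989 probe sets at an unadjusted p under 0.05. Leaving out later mock replicate 1 or 2 gave 11 or 6 calls, and leaving out earlier mock replicate 1 gave 7. Without earlier mock replicate 2 limma called 0, with 1121 at an unadjusted p under 0.05. Without either heat array from the first sampling it also called 0, with 1763 at an unadjusted p under 0.05. Leaving out either recovered heat array gave 34. A fit over all 22746 probe sets that are not controls called 18, of which 2 were among the 21.

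The size of the 2-day difference was set beside that between replicates. The median absolute difference over the 13849 probe sets was 0.167 to 0.195 for the 4 pairs of 1 later and 1 earlier array, against 0.141 between the later replicates and 0.142 between the earlier replicates. A difference of at least 1 was seen for 210 to 379 probe sets in the mixed pairs, for 99 between the later replicates and for 144 between the earlier ones. Every mixed pair thus exceeded both replicate pairs, by a small margin in the median. The later and earlier arrays did not overlap at 6362 probe sets (45.9%), with the later above at 3136 (22.6%) and below at 3226 (23.3%). In the same fit, heat against mock gave 9749 calls (70.4%) at once and 582 (4.2%) after recovery; these comparisons share the mock arrays with the one described here.

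**Figure D2:**
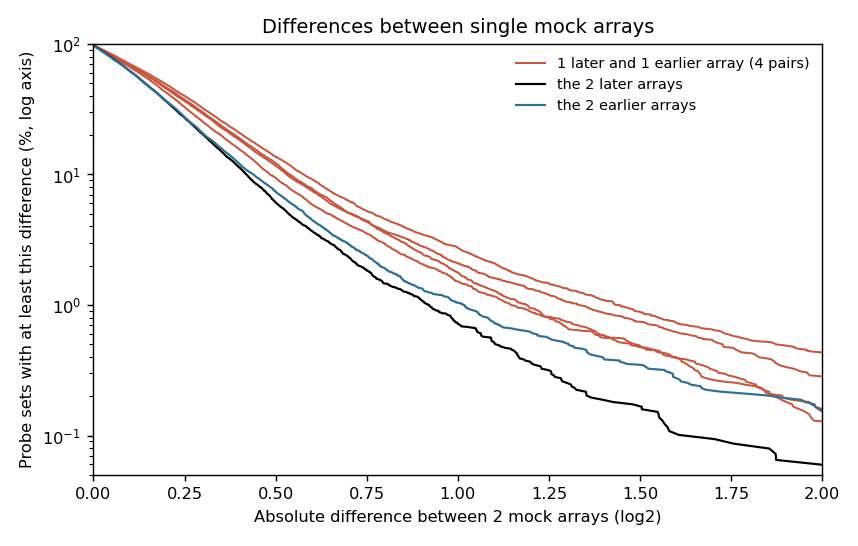
Share of the 13849 tested probe sets (vertical axis, %, log scale) with at least a given absolute difference between 2 mock arrays (horizontal axis, log2). Pairs of 1 later and 1 earlier array have medians of 0.167 to 0.195, against 0.141 and 0.142 for the replicate pairs; in the far tail the line of the earlier pair meets the lowest of the mixed pairs.

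At all 21 called probe sets the later and earlier arrays did not overlap, as was so for 45.9% of all tested probe sets. Of the 21, 11 had a single listed gene, 5 higher and 6 lower. Those with an assigned symbol, UPB1 and ARL, are both known regulators of growth. UPB1 (UPBEAT1) encodes a bHLH transcription factor that sets the balance of reactive oxygen species where root cells pass from division to elongation. Its level was 7.87 and 7.31 on the later mock arrays, against 5.81 and 5.90 on the earlier mock arrays, a rise of 1.73 ± 0.19 (limma adjusted p = 0.0233). ARL, the ARGOS-like gene, promotes cell expansion in growing organs. Its level was 11.31 and 10.99 on the later arrays and 9.82 and 9.81 on the earlier arrays, a rise of 1.34 ± 0.14 (adjusted p = 0.0207). Both earlier ARL values lay within 0.02 of each other, and both later ones stood more than 1 above them. UPB1 was called in 10 and ARL in 9 of the 17 alternative fits.

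Of the listed genes that rose, 3 have a locus identifier and no symbol. AT2G39980 had levels of 8.29 and 8.33 on the later arrays and 6.12 and 6.48 on the earlier arrays, a change of 2.01 ± 0.15 (limma adjusted p = 0.0049), and was called in 11 of 17 alternatives. AT1G21320 had 4.41 and 4.74 on the later arrays, against 2.86 and 2.86 on the earlier arrays. Its rise was 1.71 ± 0.14 (limma adjusted p = 0.0081), with both earlier values close to the floor, and 0.57 (limma adjusted p = 0.151) with values under 4 set to 4. AT1G21320 reached log2 4 only on the later mock arrays, so it passed the filter through the group where it was high. AT5G06570 had 3.97 and 3.75 on the later arrays and 2.36 and 2.72 on the earlier arrays. It rose by 1.32 ± 0.16 (adjusted p = 0.0426) and was called in 4 of 16 alternatives. It stayed below log2 4 on all 4 mock arrays and passed the filter through the recovered heat arrays (4.48 and 4.32). With values under 4 set to 4 its change was 0.0 (adjusted p = 1.0).

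Among the 6 genes that fell, AT1G66100 stands on the list of defensins, thionins and lipid transfer proteins. Its level was 8.66 and 8.29 on the later arrays and 10.18 and 10.16 on the earlier arrays, a change of -1.70 ± 0.16 (limma adjusted p = 0.0170). AT1G26380 had 2.59 and 2.90 on the later arrays, near the floor, and 4.55 and 5.28 on the earlier arrays. Its change was -2.17 ± 0.23 (limma adjusted p = 0.0207), and with values under 4 set to 4 it was -0.91 (limma adjusted p = 0.161). AT1G26380 reached log2 4 only on the earlier mock arrays, so it passed the filter through the group where it was high.

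AT1G07050 had levels of 4.94 and 5.55 on the later arrays and 7.52 and 7.22 on the earlier arrays, a change of -2.12 ± 0.24 (limma adjusted p = 0.0235). AT3G28220 had 5.70 and 5.97 on the later arrays and 7.28 and 7.61 on the earlier arrays, a change of -1.61 ± 0.17 (adjusted p = 0.0207). In each, the later pair lay more than 1 below the earlier pair. The remaining pair fell by less and sat nearest the threshold. AT1G20070 had 3.31 and 3.06 on the later arrays, against 4.35 and 4.32 on the earlier arrays (change -1.15 ± 0.15), and AT3G26630 had 5.05 and 5.08 against 6.05 and 6.09 (change -1.01 ± 0.13), each with a limma adjusted p of 0.0453. They were called in 5 of 16 and 6 of 17 alternatives. With values under 4 set to 4, AT1G20070 changed by -0.34 (adjusted p = 0.231).

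**Figure D3:**
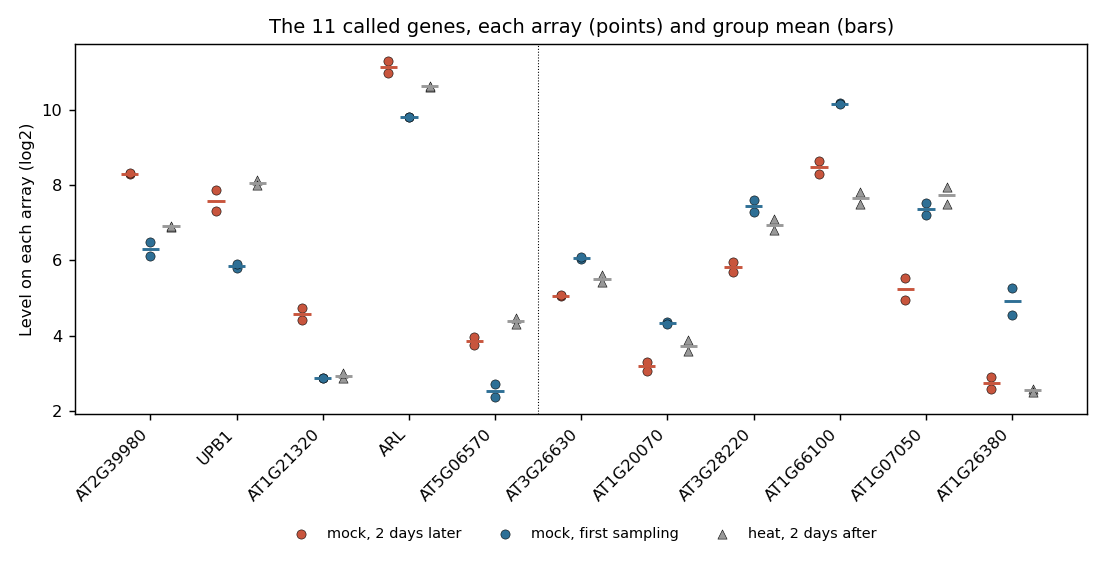
Level (vertical axis, log2) of the 11 called genes on each array, with later mock, earlier mock and recovered heat arrays from left to right within a gene; points are arrays and bars are group means (n = 2). The dotted line parts the 5 genes called higher in later mock plants from the 6 called lower; the recovered heat arrays, sampled with the later mock plants, lie near the later mock level for some genes and near the earlier one for others.

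The recovered heat plants were sampled with the later mock plants, and their levels are given as a description. UPB1 had 8.14 and 8.01 on the recovered heat arrays, above both mock groups, and AT5G06570 had 4.48 and 4.32, likewise above both. AT1G26380 had 2.59 and 2.51 there, at or just below the later mock arrays. AT1G07050 had 7.50 and 7.96, and AT1G21320 had 2.86 and 3.00, in both cases near the earlier mock level. ARL had 10.61 and 10.65, between the mock groups. The recovered plants therefore shared no single position relative to the unstressed plants across these genes.

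The other 10 called probe sets had no gene in the annotation used here, 7 higher and 3 lower, and are unnamed. The largest change of all was in this set: probe set 266364_at had 9.66 and 8.97 on the later arrays, against 5.88 and 5.64 on the earlier arrays, a rise of 3.55 ± 0.31 (limma adjusted p = 0.0116). Probe set 260869_at had 5.46 and 4.86 on the later arrays and 2.43 and 2.39 on the earlier arrays, a rise of 2.75 ± 0.19 (adjusted p = 0.0039). A further rise, of 266965_at, was against earlier arrays at the floor and is a minimum, of at least 2.05. Both 260869_at and 266965_at reached log2 4 only on the later mock arrays. They thus passed the filter through the group where they were high. The 3 falls ran from -1.45 to -0.84. The deepest of them, 256012_at, passed the filter only through the earlier mock arrays (4.88 and 4.54), where it was high.

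Some large differences did not pass the test. The largest of these, chosen after their values were seen, are given by value. AT5G22430 had 4.49 and 6.54 on the later arrays and 2.86 and 2.199 on the earlier arrays, a difference of 2.98 ± 0.56 (limma adjusted p = 0.108). AT1G47400 had 3.16 and 4.32 on the later arrays, against 5.95 and 7.61 on the earlier arrays, a difference of -3.04 ± 1.59 (adjusted p = 0.502). In both genes the replicates of at least 1 mock group stood more than 1 apart. For AT1G47400 the recovered heat arrays, which entered the same estimate of the spread, stood further apart, at 8.77 and 3.04. With the 4 mock arrays alone its unadjusted p in limma was 0.019 (adjusted p = 0.281). Nearer the threshold was WAG2, a protein kinase that directs auxin transport, with 4.73 and 4.83 on the later arrays and 3.07 and 2.22 on the earlier arrays (adjusted p = 0.060). WSD1, a wax ester synthase of the cuticle, had 3.78 and 4.38 on the later arrays and lay at the floor on both earlier arrays (adjusted p = 0.055). MSRB6, a methionine sulfoxide reductase, had 5.38 and 5.85 on the later arrays, against 7.56 and 7.67 on the earlier arrays (limma adjusted p = 0.078). Of the genes in this paragraph, AT5G22430 and WAG2 passed the filter only through the later mock arrays, where they were high.

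Gene lists were read by counts and medians. The 38 lists gave 272 tested members, and 1 was called, AT1G66100, against 21 of 13849 (0.152%) over all tested probe sets. Probe sets with a single listed gene covered 98 of the 466 genes listed by locus, so most members of many lists were not analysed here. Among defensins, thionins and lipid transfer proteins, 5 of 16 genes were tested, with a median change of -1.23 against -0.0016 over all probe sets. The median was -0.60 without earlier mock replicate 2 and -0.74 without later mock replicate 1. The thionin THI2.2 had 4.92 and 5.90 on the later arrays and 6.69 and 6.59 on the earlier arrays (limma adjusted p = 0.202). The defensin PDF1.4 had 4.80 and 5.19 on the later arrays and 5.60 and 6.89 on the earlier arrays (adjusted p = 0.384). The jasmonate-responsive defensin PDF1.2 overlapped, with 8.73 and 5.999 on the later arrays and 6.28 and 5.84 on the earlier arrays, and PDF1.2b overlapped too. Members of this list thus lay on both sides of 0.

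Of 41 clock and clock output genes 4 were tested, and 0 passed, though 2 (COR27 and AT4G33980) had an unadjusted p under 0.05 on the lower side in limma, as did 6.08% of all probe sets. All 4 differences were negative, against 50.4% of all probe sets, with a median of -0.69 (-0.44 without later mock replicate 1). COR27, a light- and cold-regulated protein that acts on evening clock genes, had 4.46 and 5.74 on the later arrays, against 7.33 and 7.50 on the earlier arrays. Its difference was -2.31 ± 0.38 (limma adjusted p = 0.086), and without later mock replicate 2 it was -2.96 and passed (adjusted p = 0.0309), the only one of its 17 alternatives in which it did. Without later mock replicate 1 it was -1.67 (adjusted p = 0.169), and the adjusted p ran up to 0.393 without earlier mock replicate 2. AT4G33980 had 6.84 and 7.82 on the later arrays and 8.38 and 8.42 on the earlier arrays (adjusted p = 0.219). GI (GIGANTEA), an evening-phased protein that stabilises a clock photoreceptor, had 8.98 and 9.01 on the later arrays and 9.40 and 9.21 on the earlier arrays, a difference of -0.31 ± 0.15. AT5G52660 had 5.57 and 6.01 on the later arrays and 5.95 and 5.74 on the earlier arrays, and the groups overlapped. AT1G69570, a further measured gene of the list, stayed below log2 4 on all 8 arrays and was not tested. It lay the other way without overlap, with 3.85 and 3.45 on the later arrays and 3.38 and 3.22 on the earlier arrays.

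Expansins loosen the cell wall, and xyloglucan endotransglucosylases cut and rejoin one of its polymers. Of 67 such genes 11 were tested, 0 passed, and the median change was 0.26. An unadjusted p under 0.05 (limma) was found for 4 of the 11 on the higher side (36.4%, against 6.12% of all probe sets). On the lower side it was found for 1, against 6.08% of all probe sets. EXLB1 had 5.71 and 5.33 on the later arrays and 4.71 and 4.60 on the earlier arrays (adjusted p = 0.091). EXPB3 had 6.71 and 7.08 on the later arrays, against 6.22 and 5.75 on the earlier arrays (adjusted p = 0.228). EXLA1 lay the other way, with 5.21 and 6.30 on the later arrays and 7.29 and 7.37 on the earlier arrays (adjusted p = 0.223). XTH19 had 7.12 and 7.06 on the later arrays and 6.57 and 4.63 on the earlier arrays, so that 1 earlier array made most of its difference.

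The core hypoxia list holds genes that low oxygen induces in many cell types, among them those of ethanolic fermentation. Of 46 genes 14 were tested and 0 passed, with a median change of 0.21 (0.11 without earlier mock replicate 1, and 0.046 among members that reached log2 6 on at least 2 arrays). The median was 0.26 without later mock replicate 1 and 0.24 without later mock replicate 2. On the higher side 5 of 14 (35.7%, against 6.12% of all probe sets) had an unadjusted p under 0.05 in limma, and 0 on the lower side. AT4G10270 had 7.53 and 6.37 on the later arrays and 5.33 and 5.16 on the earlier arrays, and AT1G19530 had 7.68 and 6.33 on the later arrays and 5.79 and 5.69 on the earlier arrays. In both, later mock replicate 1 stood more than 1 above replicate 2. The later replicates lay close together in the other members with such a p on the higher side. AT1G33055, with the lowest unadjusted p of the list, had 5.18 and 5.095 on the later arrays and 4.26 and 4.64 on the earlier arrays. AT4G17670 had 5.45 and 5.36 on the later arrays, against 5.13 and 4.61 on the earlier arrays. AT3G27220 differed by 0.32 ± 0.13. PDC2, a pyruvate decarboxylase of ethanolic fermentation, had 9.76 and 9.71 on the later arrays and 9.89 and 9.67 on the earlier arrays, and did not follow.

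UDP-glycosyltransferases attach sugars to hormones and secondary metabolites. Of 58 members 25 were tested and 0 passed, with a median change of -0.12 and 19 negative differences, against 50.4% negative among all probe sets. On the lower side 4 of 25 (against 6.08% of all probe sets) had an unadjusted p under 0.05 in limma, and 0 on the higher side. UGT85A5 had 5.16 and 5.26 on the later arrays and 6.20 and 6.44 on the earlier arrays, a difference of -1.11 ± 0.17 (limma adjusted p = 0.070). UGT84A3 had 6.26 and 5.80 on the later arrays, against 6.84 and 6.82 on the earlier arrays (adjusted p = 0.156). UGT78D1 and UGT78D2, which glycosylate flavonoids, differed by -0.15 and -0.06.

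Age-related lists gave single genes. WRKY53, a transcription factor that promotes leaf senescence, had 4.51 and 4.66 on the later arrays and 5.41 and 6.17 on the earlier arrays (limma adjusted p = 0.156). WRKY6, another factor linked to senescence, had 5.03 and 5.30 on the later arrays and 5.78 and 5.71 on the earlier arrays. SAG101, a lipase-like protein of senescence and defence, lay the other way without overlap, with 6.23 and 6.37 on the later arrays and 5.97 and 6.09 on the earlier arrays (adjusted p = 0.542). SAG29 lay at the floor on all 4. AGL24, a MADS-box promoter of flowering, had 6.59 and 6.57 on the later arrays and 6.17 and 5.99 on the earlier arrays, a difference of 0.50 ± 0.14 (adjusted p = 0.236). Of the iron list 2 genes were tested. BHLH101, a factor induced by iron shortage, had 2.51 and 2.26 on the later arrays and 3.72 and 4.72 on the earlier arrays (adjusted p = 0.574). Its recovered heat arrays, which entered the same estimate of the spread, stood far apart, at 7.38 and 3.08.

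Sugar transport and storage showed values on both sides of 0. SWEET16, a vacuolar sugar transporter, had 5.71 and 5.35 on the later arrays and 6.29 and 6.20 on the earlier arrays (limma adjusted p = 0.168), while SWEET1, a glucose transporter, had 8.10 and 8.05 on the later arrays and 7.67 and 7.77 on the earlier arrays (adjusted p = 0.279). AMY1, an alpha-amylase, had 2.81 and 2.46 on the later arrays and 2.80 and 5.03 on the earlier arrays, so that its difference came from earlier mock replicate 2. Of 8 autophagy genes, ATG8G, a ubiquitin-like protein of the autophagosome membrane, differed by 0.59 and its paralogue ATG8D by -0.28. In limma 0 of the 8 passed. An unadjusted p under 0.05 was found for 1 each way, against 6.12% of all probe sets higher and 6.08% lower.

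Heat shock and chaperone genes are given by their mock levels. Of the 7 tested small heat shock genes, 5 stayed below log2 4 on all 4 mock arrays and passed the filter only through heat arrays, so their small differences are no measure of stability. AT1G53540 was 1 of these, with 2.71 and 2.37 on the later arrays and 2.76 and 2.48 on the earlier arrays. The other 2 were AT4G21870, with 10.28 and 10.04 on the later arrays and 10.20 and 10.28 on the earlier arrays, and AT5G37670, with 5.12 and 5.09 on the later arrays and 5.09 and 5.01 on the earlier arrays. Their differences were -0.07 ± 0.15 and 0.05 ± 0.14. BOB1, a chaperone needed for development and heat tolerance, had 7.41 and 7.39 on the later arrays and 7.13 and 7.05 on the earlier arrays, a difference of 0.31 ± 0.13. CRT1b, a calreticulin of the endoplasmic reticulum, had 9.45 and 9.59 on the later arrays and 9.10 and 9.08 on the earlier arrays (limma adjusted p = 0.283). None of the 16 members of the heat, chaperone and endoplasmic reticulum lists passed in limma. An unadjusted p under 0.05 was found for 2 of them, BOB1 and CRT1b, against 12.2% of all probe sets.

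Photosynthesis, histone and organelle genes showed small differences. The 5 nuclear photosynthesis genes had a median change of -0.02, the 4 core histones 0.23 and the 15 mitochondrion-encoded genes 0.06, though 8 of these 15 stayed below log2 4 on all 4 mock arrays. The 63 plastid-encoded genes had a median of 0.08 and a range of -0.31 to 0.52, and 48 of them (76.2%, against 49.4% of all probe sets) were positive. In limma 0 of the 63 were called and 1 had an unadjusted p under 0.05, against 12.2% of all probe sets. The plastid median turned on single arrays: it was 0.26 without earlier mock replicate 1 and -0.02 without earlier mock replicate 2. Plastid genes are transcribed together in long units, so these members are not independent.

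**Figure D4:**
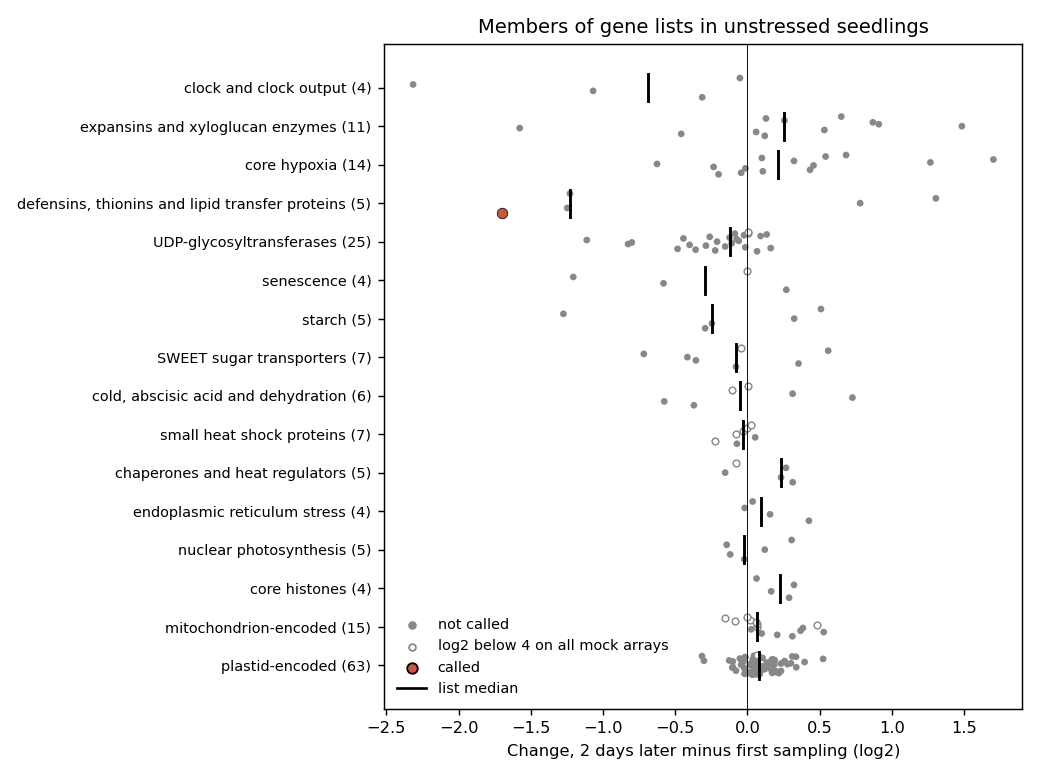
Change between the later and the earlier mock arrays (horizontal axis, log2) for each tested member of 16 gene lists, with the number tested in brackets and the list median as a bar. The single called member, AT1G66100 at -1.70, is coloured. Open points mark members below log2 4 on all 4 mock arrays, among them 5 of 7 small heat shock genes; the 4 clock members all lie below 0.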

How the data were processed

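RNA of 8 seedling samples was measured on Affymetrix arrays, 2 per group. Per the submitters' processing notes, the authors used GCRMA; its version was not stated there. The authors deposited 1 score per probe set and array without a decimal point (0 of 182480 values hold one). The point was put back after 2 digits for values starting with 1 and after 1 digit otherwise; the deposited numbers were then read as log2 values (2.18 to 15.23). No value began with 16 to 20. The 10444 values starting with 10 to 15 were taken to have 2 digits before the point, which is an assumption of this reading. The authors' normalization hides any shift shared by all transcripts.

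Of 22746 probe sets that are not controls, 13849 reached log2 4 on at least 2 arrays; 7459 of these had 1 gene, 301 several and 6089 none. RefSeq matched 7421 of the 7459 and gave names only. limma 3.58.1 (R 4.3.3) fitted 1 mean per group over all 8 arrays (4 residual degrees of freedom), two-sided, with Benjamini-Hochberg adjustment over all kept probe sets. Python 3.11.15, pandas 2.3.3 and matplotlib 3.10.9 were used for the rest. The fit was tested on simulated data. For arrays, their number limits the precision.

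Named genes were those with 1 gene that passed and did not overlap between mock groups (up to 15 each way), list members by p (up to 3 each way from a list with a call), and all measured clock genes; others are given by value. The comparison, members and gene lists were chosen with earlier results of these data known. Where probe sets shared a gene, the one with the highest mean stood for it. Each alternative fit changed 1 choice: the filter, arrays fitted, variance model, scaling, a floor, a replicate block or 1 array left out.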

Additional observations from a re-analysis of the deposited data

How the results depend on the processing

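The count of 21 calls (12 higher, 9 lower) moved most with the arrays in the fit. The 4 mock arrays alone gave 0 calls in limma, 0 higher and 0 lower, with 0 list members called and 1989 probe sets at an unadjusted p under 0.05. Leaving out 1 array at a time gave 0 to 34 calls, 0 to 21 higher and 0 to 13 lower, and 0 to 1 list members called. An intensity trend gave 19 higher, and setting values under 4 to 4 gave 7 higher. Without the filter 18 were called and 0 of the list members, with 2 shared with the 21. The cause of these moves was not tested. With a replicate block 19 were called (11 higher, 8 lower), 17 of them among the 21; the labels do not pair same-numbered samples, and deviations of same-numbered mock arrays correlated at 0.035 between the 2 mock groups (-0.149 to 0.186 over all 6 pairs of groups). A stricter filter (18), robust variances (21), repeated quantile normalization (22) and median centring (18) stayed within 1.5 times. The 11 named genes lost the call in 94 of 183 gene and setting pairs. They kept their direction, or came to no difference, in all 183, but this says little. Their mock groups did not overlap, so leaving out 1 array could not turn the direction. List medians moved by more than their spread in 12 of 425. With 2 arrays per group, and signals below log2 2.3 at the floor, small changes of low transcripts were not detectable.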
